A study of Mus musculus with 26 samples.

Results

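The nuclear genes for oxidative phosphorylation were taken as every protein-coding gene of GENCODE M21 outside the mitochondrial chromosome whose symbol starts with Ndufa, Ndufb, Ndufc, Ndufs, Ndufv, Uqcr, Atp5 or Cox4 to Cox8, together with Sdha to Sdhd. The rule uses names only and gave 94 genes of 21938 protein-coding genes, carrying 93 symbols because Atp5o is annotated at 2 gene identifiers. By name, 12 processed pseudogenes and 1 non-coding transcript were left out. Complex I contributed 36 genes, of which 7 encode core subunits and 29 accessory subunits, and its assembly factors contributed 8. Complex II contributed 4 genes, complex III 8, complex IV 20 and complex V 18.

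Mitochondria make most of their ATP by passing electrons from NADH and succinate through complexes I to IV of the inner membrane and by letting the resulting proton gradient drive complex V, the ATP synthase. Most subunits of these complexes are encoded in the nucleus, translated in the cytosol and imported, and a small set is encoded by the mitochondrial DNA, so each complex except complex II is assembled from products of both genomes. Many of the nuclear genes have short transcripts and promoters with sites for NRF-1, GABP, YY1 and Sp1.

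The cells were female mouse embryonic fibroblasts (MEFs) grown in DMEM with calf serum. WT cells were labelled as wild type, and the study's methods do not say whether they were the unmodified parental line. ATRXΔRBR cells were 1 CRISPR clone in which the RNA-binding region (RBR) was deleted in frame from the endogenous Atrx gene, which encodes a chromatin remodeler, and ATRX KD cells carried an shRNA against Atrx and were selected with puromycin. RNA-Seq of poly(A) RNA gave 2 libraries for each genotype, and CUT&RUN, which maps chromatin proteins by antibody-guided cleavage, gave 16 peak lists: ATRX in WT and ATRXΔRBR, and the Polycomb enzyme EZH2 and its histone mark H3K27me3 in all 3 genotypes.

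The RNA-Seq totals ran from 9051693 to 21723647 estimated counts per library. The Atrx transcript stood at 233 and 141 TPM, a level scaled to transcript length and library size, in WT, at 175 and 124 TPM in ATRXΔRBR, and at 331 and 512 TPM in the libraries labelled ATRX KD. In TPM it was thus not lower in the libraries labelled ATRX KD than in WT. In CPM (counts scaled to library size), WT stood at 619.4 and 429.1 and ATRXΔRBR at 374.4 and 308.4. The libraries labelled ATRX KD stood at 420.3 and 555.8 CPM, so that their range overlapped that of WT. Every comparison below names these libraries by that label. Of 8 fibroblast markers, 6 were at 5 TPM or more in every library, Thy1 was at 0 in all of them, and Col3a1 stood at 28.1 and 32.2 TPM in WT, 20.3 and 15.8 TPM in ATRXΔRBR and 0.36 and 0.75 TPM in the libraries labelled ATRX KD. The summed fibroblast list was 12999 and 10559 TPM in WT, 19496 and 21942 TPM in ATRXΔRBR and 17160 and 17303 TPM in the libraries labelled ATRX KD; the adipocyte list, nearly all Fabp4, was 79.7 and 66.8 TPM, 49.2 and 59.7 TPM, and 25.6 and 28.4 TPM in the same order. The part of these markers in the results was not tested. The differences in this bulk RNA cannot tell fewer cells of a type from less RNA per cell.

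The oxidative phosphorylation genes were among the more abundant transcripts of these cells. Their median level in WT was 245 TPM, beside 1.675 TPM for 21877 protein-coding genes, and 60 of the 93 genes in the RNA files reached 100 TPM in every library. Their summed share of all TPM was 3.58% and 3.03% for the WT libraries, 2.67% and 3.30% for ATRXΔRBR, and 2.64% and 2.685% for the libraries labelled ATRX KD. The WT and ATRXΔRBR ranges overlapped, while both libraries labelled ATRX KD lay below both WT libraries.

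**Figure D1:**
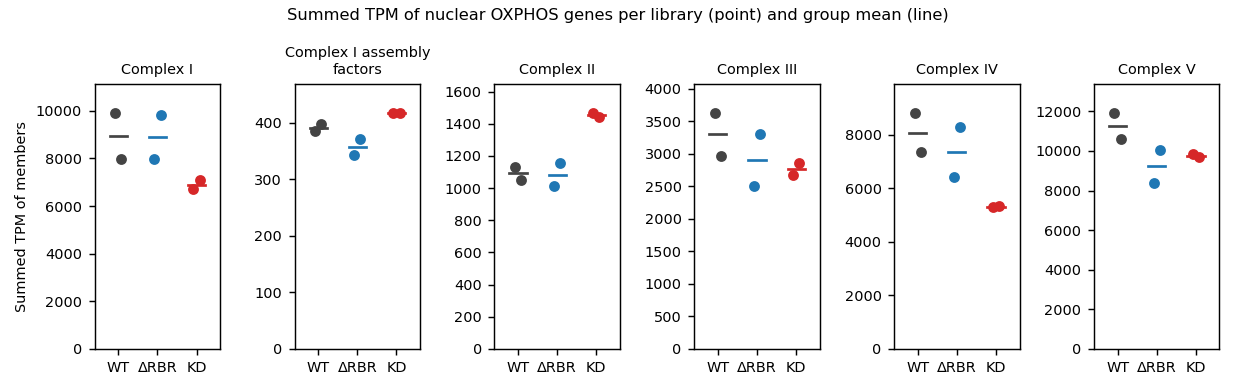
Summed TPM of the members of each complex and of the complex I assembly factors, on axes from 0; points are the 6 RNA-Seq libraries and lines the means of 2 libraries per genotype. Complex IV was at 8825 and 7346 TPM in WT and at 5311 and 5320 TPM in the libraries labelled ATRX KD.

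Complex V, the ATP synthase, had the largest summed level, with 11934 and 10584 TPM in WT, 8397 and 10074 TPM in ATRXΔRBR, and 9822 and 9710.01 TPM in the libraries labelled ATRX KD. Both other genotypes lay below both WT libraries. Complex I, which oxidizes NADH, stood at 9923 and 7964 TPM in WT, at 7971 and 9841 TPM in ATRXΔRBR and at 6697 and 7102 TPM in the libraries labelled ATRX KD. Its WT and ATRXΔRBR libraries interleaved, and the libraries labelled ATRX KD lay below all of them. Complex IV, cytochrome c oxidase, lay outside the WT range in the libraries labelled ATRX KD, with a ratio of means of 0.657 to WT, and stood at 6432 and 8299.57 TPM in ATRXΔRBR.

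Complex III, which passes electrons to cytochrome c, stood at 3633 and 2968 TPM in WT, 2503 and 3300.45 TPM in ATRXΔRBR and 2676 and 2857 TPM in the libraries labelled ATRX KD, again with the last below both WT libraries. Complex II, succinate dehydrogenase, went the other way in those libraries, at 1469 and 1440.33 TPM beside 1132 and 1050.27 TPM in WT and 1012 and 1157 TPM in ATRXΔRBR. The complex I assembly factors were at 386 and 397 TPM in WT, 343 and 371 TPM in ATRXΔRBR and 417 and 418 TPM in the libraries labelled ATRX KD, where the ratio to WT was 1.07 in TPM and 0.910 in summed CPM (counts scaled to library size), so that its direction depended on the scale. These sums carry no test, since exact two-sided permutation of 2 libraries against 2 cannot go below p = 0.333.

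**Figure D2:**
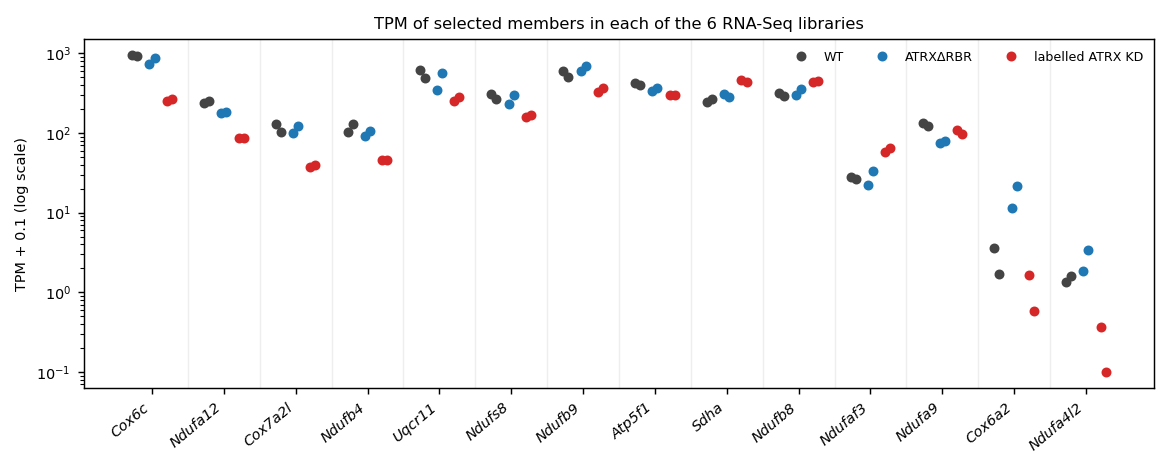
TPM + 0.1 on a log axis of selected members in each of the 6 RNA-Seq libraries (points), colored by genotype. Cox6c in the libraries labelled ATRX KD, at 249 and 269 TPM, lies below its other 4 points, and Cox6a2 in ATRXΔRBR, at 11.4 and 21.7 TPM, lies above its other 4.

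Within each complex the levels spanned a wide range. Atp5b, the catalytic beta subunit of the ATP synthase, was highest of all at 3944 and 4384 TPM in WT, 3239.81 and 3536 TPM in ATRXΔRBR and 3623 and 3401 TPM in the libraries labelled ATRX KD, with log2 fold changes of -0.28 and -0.03 against WT that were not called. Cox4i1, the ubiquitous isoform of subunit 4 of cytochrome c oxidase, led complex IV with 1917 and 1681 TPM in WT. Ndufa5 led complex I, at 716 and 464 TPM in WT, 646 and 839.57 TPM in ATRXΔRBR and 316 and 291 TPM in the libraries labelled ATRX KD.

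In complex II, Sdhd, a membrane anchor, was highest in WT at 339 and 311 TPM, with 236 and 259 TPM in ATRXΔRBR and 302 and 280.4 TPM in the libraries labelled ATRX KD, and Sdhc, the other anchor, was lowest at 250.1 and 217 TPM, with 256 and 364 TPM, and 423 and 421 TPM. Neither was called. In complex III, Uqcrh, a hinge protein, was highest at 943 and 638 TPM in WT, 491 and 616 TPM in ATRXΔRBR and 462 and 514 TPM in the libraries labelled ATRX KD. Uqcrc2, a core protein, was lowest at 99.3 and 124 TPM in WT.

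Cytochrome c oxidase has isoforms that are used mainly in striated muscle, lung or testis, and these were at or near 0. Cox8b and Cox8c were at 0 in all 6 libraries, Cox7b2 and Cox6b2 had reads in 1 ATRXΔRBR library only (0.44 and 0.63 TPM), Cox4i2 was at 0.32 TPM or less and Cox7a1 at 1.56 TPM or less. Their partners in other tissues were high, with Cox6a1 at 1315 and 755 TPM, Cox4i1 as above and Cox7a2 at 757 and 669 TPM in WT. Cox6a2, the heart and skeletal muscle form of subunit 6a, was the exception and is described with the ATRXΔRBR comparison.

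Some members share sequence with other genes, which can split their reads. Ndufs5, an accessory subunit of complex I, stood at 0.22 to 0.79 TPM, and 24.7% of its 38-base windows also occur in the processed pseudogene BC002163, which was at 34.8 to 73.6 TPM. Among members picked after their values were seen, Cox7c, Atp5g1 and Atp5g2 likewise shared 23.4%, 12.3% and 39.5% of their windows with other annotated genes. Of all members, 75 shared under 10%, 38 shared none, and the second Atp5o identifier, which is not in the RNA files, shared 92.5%.

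The 250 bases before the RefSeq start of 5 members follow, because results given later turn on them. Ndufv2 had ATRX peaks in all 4 lists, Ndufs8 fell in the libraries labelled ATRX KD, Ndufa9 fell in ATRXΔRBR, Ndufb8 lay under H3K27me3, and Ndufaf4, an assembly factor, shows an NRF-1 motif. They are read from RefSeq promoter sequences on GRCm38.p6, given 5′ to 3′ of the gene's strand, at chr17:66101560-66101809 on the minus strand (Ndufv2), chr19:3912775-3913024 on the minus strand (Ndufs8), chr6:126849145-126849394 on the minus strand (Ndufa9), chr19:44555443-44555692 on the minus strand (Ndufb8) and chr4:24897833-24898082 on the plus strand (Ndufaf4). Capitals mark matches to the motifs described after them.
Ndufv2: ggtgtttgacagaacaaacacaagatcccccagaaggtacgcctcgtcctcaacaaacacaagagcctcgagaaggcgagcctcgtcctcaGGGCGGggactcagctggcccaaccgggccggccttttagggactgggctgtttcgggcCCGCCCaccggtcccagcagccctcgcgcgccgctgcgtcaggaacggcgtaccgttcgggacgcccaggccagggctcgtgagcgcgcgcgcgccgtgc
Ndufs8: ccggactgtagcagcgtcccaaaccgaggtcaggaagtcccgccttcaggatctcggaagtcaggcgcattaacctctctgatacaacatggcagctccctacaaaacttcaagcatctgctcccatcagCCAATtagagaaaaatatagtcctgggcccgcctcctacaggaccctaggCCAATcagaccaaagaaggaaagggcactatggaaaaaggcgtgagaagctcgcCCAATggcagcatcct
Ndufa9: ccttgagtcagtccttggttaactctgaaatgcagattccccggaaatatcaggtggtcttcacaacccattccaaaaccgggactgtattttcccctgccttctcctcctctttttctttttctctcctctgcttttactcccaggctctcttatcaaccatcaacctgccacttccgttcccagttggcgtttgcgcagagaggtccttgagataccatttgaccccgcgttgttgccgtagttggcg
Ndufb8: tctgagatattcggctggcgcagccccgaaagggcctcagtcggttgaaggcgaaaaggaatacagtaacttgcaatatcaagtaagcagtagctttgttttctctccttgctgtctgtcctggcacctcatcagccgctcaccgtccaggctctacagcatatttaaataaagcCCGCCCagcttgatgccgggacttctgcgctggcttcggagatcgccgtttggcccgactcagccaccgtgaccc
Ndufaf4: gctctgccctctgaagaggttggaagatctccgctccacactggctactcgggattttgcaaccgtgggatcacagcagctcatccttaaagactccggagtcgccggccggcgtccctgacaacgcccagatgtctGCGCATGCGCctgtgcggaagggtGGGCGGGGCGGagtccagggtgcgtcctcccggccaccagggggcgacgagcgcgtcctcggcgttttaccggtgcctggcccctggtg

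The Ndufv2 stretch overlaps its ATRX peaks, which ran from 66101663 to 66101820 and from 66101719 to 66101894 in the WT lists and from 66101166 to 66101892 and 66101444 to 66101881 in the ATRXΔRBR lists on chromosome 17. The following motifs were searched on both strands from 250 bases before to 50 after the start: the NRF-1 palindrome, GABP (CCGGAAG), YY1 (AAGATGGC), Sp1 (GGGCGG), NF-Y (CCAAT) and ERR (AAGGTCA). None holds the letters of another. RefSeq promoters were matched for 74 of the 93 symbols.

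NRF-1 letters were in 7 of the 74 promoters (9.46%, beside 1.07% of 27025 genes and 2.65% of 7696 genes at 5 TPM or more in WT), YY1 letters in 10 (13.5%, beside 3.19% and 6.12%) and ERR letters in 8 (10.8%, beside 5.38% and 3.4%). GABP letters were in 18 (24.3%, beside 9.93% and 23.0%), close to the share of expressed genes, and Sp1 letters in 33 (44.6%, beside 38.2% and 73.6%), under it. NF-Y letters were in 33 (44.6%, beside 41.1% and 43.8%). The NRF-1 promoters were those of Ndufa11, Ndufaf4, Ndufaf5, Uqcrc1, Cox6a1, Atp5g2 and Atp5k. No motif was found in 11 promoters (14.9%, beside 31.4% of all genes). The printed stretch of Ndufa9 holds no match, and its 1 match, to YY1, lies after the start.

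The members' transcripts were short, with a median of 657 bases beside 2162 bases for the genes tested, and 67 of 93 were under 1000 bases. Short transcripts as a class differed between libraries. Among expressed genes sorted by length into 5 bins, the shortest, of up to 1336 bases, held 68 of the 81 members in the bins. Its median log2 fold change was -0.47 for all genes and -0.65 for the members in the libraries labelled ATRX KD against WT, and that of the longest bin was 0.42. The same bin differed between the replicates of a genotype, by -0.25 between the WT libraries, replicate 2 minus replicate 1, and by 0.32 between the ATRXΔRBR libraries. Because of this, the counts below are given beside a fit with an offset for length and GC content.

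**Figure D3:**
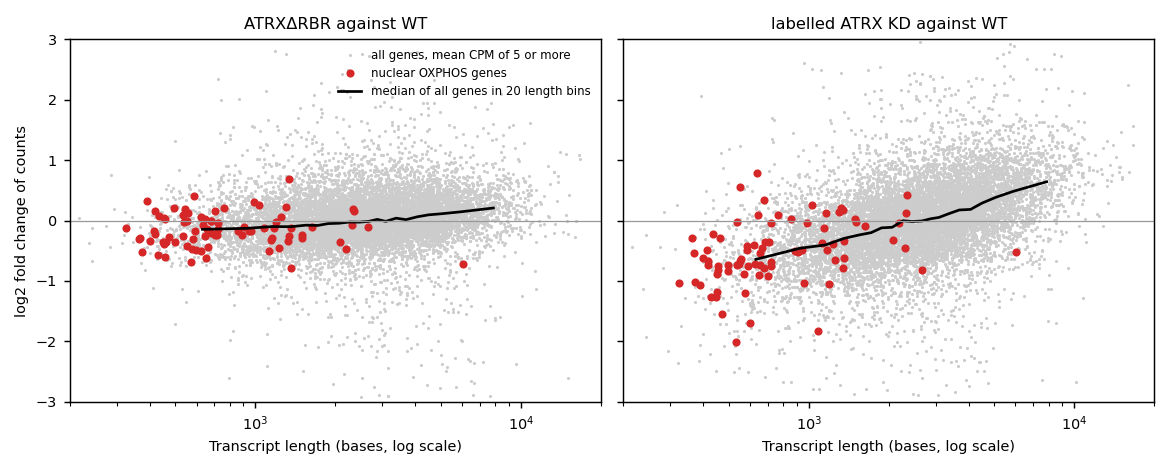
Log2 fold change of counts against WT by transcript length in bases (log axis) for ATRXΔRBR (left) and the libraries labelled ATRX KD (right), with genes at a mean CPM of 5 or more in gray, members in red and the median of all genes as a line. Most members lie at the short end, where the median of all genes in the shortest of 5 bins was -0.47 in the right panel.

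The ATRXΔRBR comparison asked whether deletion of the RNA-binding region changed these transcripts. The quasi-likelihood test of edgeR, adjusted by Benjamini-Hochberg and with a threshold of 0.05, called 2 of 86 members, 1 higher and 1 lower, beside 6.85% of all 16334 genes tested (2.79% higher, 4.07% lower). An unadjusted p under 0.05 was reached by 11 members. The median log2 fold change of the members was -0.17, beside -0.02 for all genes, and with the length and GC offset it was -0.04. That offset gave 5 members higher and 5 lower, beside 15.6% of all genes (7.37% higher, 8.26% lower). In CPM, 19 members had both ATRXΔRBR libraries below both WT libraries (25.1% of all genes did) and 10 had both above (24.4%). Of the 86 members, 61 had a log2 fold change below 0 and 25 above it, and the share of all genes below 0 is not given here. In the shortest length bin, which held 68 members, the median was -0.12 for all genes and -0.17 for the members.

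Cox6a2, the muscle form of cytochrome c oxidase subunit 6a, had 16 and 6 counts in WT, 33 and 100 counts in ATRXΔRBR and 4 and 3 counts in the libraries labelled ATRX KD, or 3.46 and 1.58 TPM, 11.4 and 21.7 TPM, and 1.53 and 0.48 TPM. Both ATRXΔRBR libraries were above all the others. Its log2 fold change was 2.63 ± 0.53 (SE, n = 2 and 2) with an edgeR adjusted p of 0.0239 (Benjamini-Hochberg), and it was called higher in each alternative in which it was tested, on few counts. Its absolute level stayed far under Cox6a1, the partner form, at 617 and 956 TPM in ATRXΔRBR. Of 8 muscle markers, Myod1, Myog and Myl2 were at 0 in every library, and the list summed to 2.48 and 1.08 TPM in WT and 2.28 and 3.77 TPM in ATRXΔRBR.

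Ndufa9, an accessory subunit of complex I, stood at 134 and 123 TPM in WT, 74.4 and 79.4 TPM in ATRXΔRBR, and 109 and 97.7 TPM in the libraries labelled ATRX KD. Both ATRXΔRBR libraries were lower than the other 4. The log2 fold change was -0.79 ± 0.19 (SE, n = 2 and 2), with an edgeR adjusted p of 0.0497 (Benjamini-Hochberg), close to the threshold of 0.05. The call was kept by the DESeq2 test, with the length and GC offset and with all 6 libraries in one fit. It was lost in edgeR with DESeq2 size factors, with a filter of at least 10 counts in every library and with a replicate block. It was also lost by limma on log2(TPM + 1) or log2(TPM + 0.1), and without either WT replicate 1 or ATRXΔRBR replicate 1. Among the complexes, no median log2 fold change lay outside -0.28 (complex V) to -0.03 (complex I), and no further member of any complex was called.

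**Figure D4:**
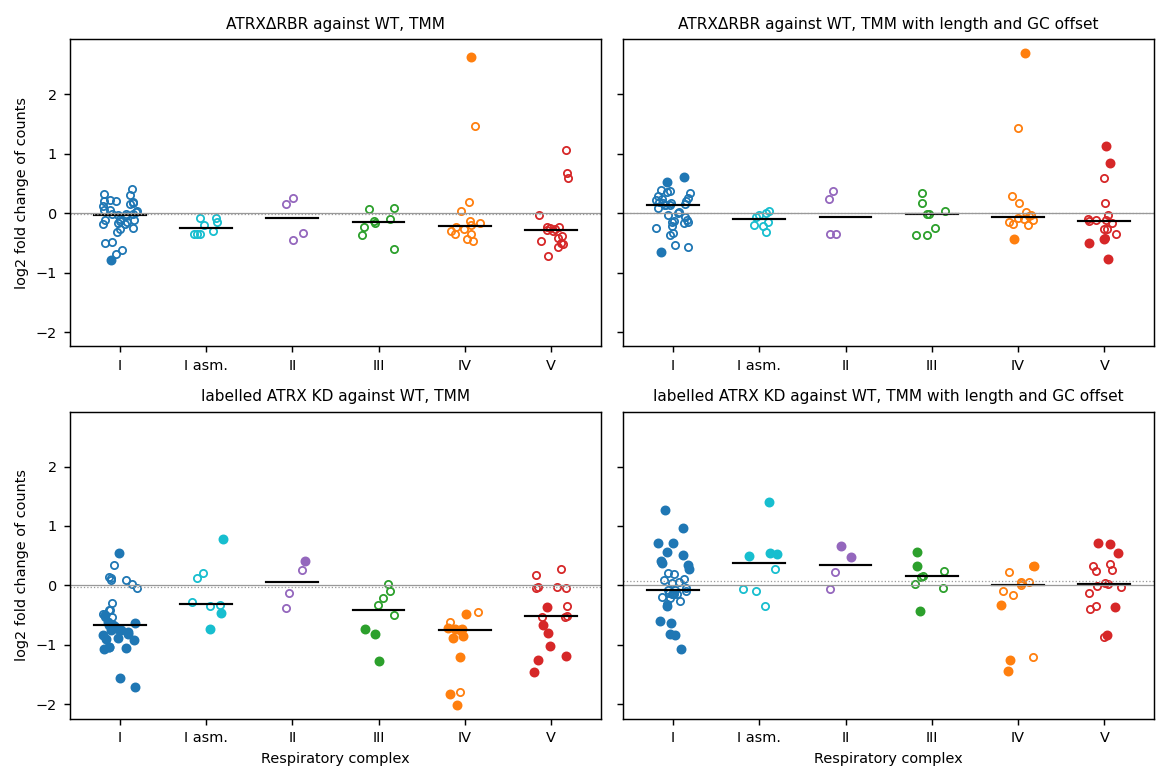
Log2 fold change of each tested member against WT by complex (asm. are assembly factors), without (left) and with (right) the length and GC offset, for ATRXΔRBR (top) and the libraries labelled ATRX KD (bottom); filled points were called, black lines are medians. At bottom left complexes IV and I have medians of -0.75 and -0.66, which at bottom right are 0.00 and -0.07.

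In the libraries labelled ATRX KD against WT, 45 of 85 members were called, 42 lower and 3 higher, beside 33.0% of all genes (17.8% lower, 15.2% higher). The median log2 fold change was -0.53, beside -0.02 over all genes, and 57 members had both libraries below both WT libraries (33.6% of all genes did). With the length and GC offset the split changed to 22 higher and 12 lower (35.7% of all genes, 18.7% higher and 17% lower), the median became 0.04 beside 0.07 for all genes, and 12 of the 42 lower members had a value above 0. The direction of the list as a whole depended on how transcript length was treated. By limma on log2(TPM + 1), 25 members were called, 20 of them lower, with a median of -0.33 beside 0.17 for all genes.

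By complex, 20 of 35 tested members of complex I were lower and 1 higher, with a median of -0.66, and 18 of the 28 tested accessory subunits were lower beside 2 of the 7 core subunits. Complex IV had 10 of 13 members lower, with a median of -0.75, complex V 7 of 17 (median -0.51) and complex III 3 of 8 (median -0.41). Complex II had 1 of 4 higher and none lower, and the assembly factors 1 higher and 2 lower of 8. With the offset, complex I had 10 higher and 6 lower, of which the accessory subunits had 7 higher and 5 lower and the core subunits 3 higher and 1 lower. Complex II then had 2 higher, complex III 2 higher and 1 lower, complex IV 1 higher and 3 lower, complex V 3 higher and 2 lower, and the assembly factors 4 higher and none lower. Differences between these groups were not tested.

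Of the 42 lower members, 8 were called lower in every refit tried at the same threshold on the adjusted p, and they are given first. Of these, Ndufb9 and Atp5f1 had an absolute log2 fold change under 1. Cox6c, a small subunit of cytochrome c oxidase, had the largest log2 fold change of the called members, from 947 and 917 TPM in WT to 249 and 269 TPM in the libraries labelled ATRX KD, with 743 and 869 TPM in ATRXΔRBR. Its log2 fold change was -2.01 ± 0.13 (SE, n = 2 and 2; adjusted p = 0.00018 by edgeR with Benjamini-Hochberg) and -1.26 with the offset. Both libraries labelled ATRX KD were below the other 4.

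Cox7a2l, which helps join complexes III and IV into supercomplexes, was at 131 and 102 TPM in WT, 101 and 122 TPM in ATRXΔRBR, and 37.7 and 39.25 TPM in the libraries labelled ATRX KD. This difference of -1.82 ± 0.20 on the log2 scale had an edgeR adjusted p of 0.00098 (Benjamini-Hochberg) and was -1.44 with the offset. The processed pseudogene Gm6969, which shares 15.5% of its windows, was also lower in those libraries, at 34.7 and 33.4 TPM beside 64.8 and 77.8 TPM in WT.

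Ndufa12, an accessory subunit of complex I, stood at 237 and 252 TPM in WT, 181 and 182 TPM in ATRXΔRBR, and 85.9 and 87.1 TPM in the libraries labelled ATRX KD (log2 fold change -1.71 ± 0.13, edgeR adjusted p = 0.000306 by Benjamini-Hochberg, -1.08 with the offset). The processed pseudogene Gm15920, which shares 19.3% of its windows, was at 57.2 and 65.0 TPM in WT and 63.3 and 64.4 TPM in the libraries labelled ATRX KD. Ndufb4, also an accessory subunit, stood at 103 and 131 TPM in WT, 92.65 and 106 TPM in ATRXΔRBR, and 46.0 and 45.9 TPM in those libraries (log2 fold change -1.55 ± 0.17, edgeR adjusted p = 0.000927 by Benjamini-Hochberg, -0.83 with the offset). Both genes were lowest in the libraries labelled ATRX KD, without overlap.

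Ndufs8, a core subunit that carries iron-sulfur clusters, was at 307 and 270.3 TPM in WT, 229 and 302 TPM in ATRXΔRBR, and 157 and 170.2 TPM in the libraries labelled ATRX KD (log2 fold change -1.04 ± 0.15, edgeR adjusted p = 0.00297 by Benjamini-Hochberg, -0.60 with the offset). Ndufb9, an accessory subunit, was at 609 and 498 TPM in WT, 594 and 702 TPM in ATRXΔRBR and 324 and 363 TPM in those libraries (-0.91 ± 0.17, edgeR adjusted p = 0.00745 by Benjamini-Hochberg, -0.34 with the offset). In both genes the libraries labelled ATRX KD were below the other 4. Uqcr11, a small subunit of complex III, was at 620.2 and 497 TPM in WT, 345 and 559 TPM in ATRXΔRBR, and 256 and 284 TPM in those libraries (-1.27 ± 0.18, edgeR adjusted p = 0.00288 by Benjamini-Hochberg, -0.43 with the offset). Atp5f1, the peripheral stalk subunit b of the ATP synthase, was at 423 and 404 TPM in WT, 341 and 373 TPM in ATRXΔRBR, and 300.3 and 297 TPM (-0.79 ± 0.13, edgeR adjusted p = 0.00403 by Benjamini-Hochberg, -0.36 with the offset).

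Most of the other members that fell were not called with the offset, under which 11 of the 42 were called lower. Ndufa4, now known as a cytochrome c oxidase subunit, was at 1201 and 1261 TPM in WT, 1189.79 and 1443 TPM in ATRXΔRBR and 760.5 and 775 TPM in the libraries labelled ATRX KD, with a log2 fold change of -0.89 ± 0.11, an edgeR adjusted p of 0.00172 (Benjamini-Hochberg), and 0.04 with the offset. Of the 20 members with the smallest p, Ndufc1, Ndufs4, Ndufab1, Ndufa6, Ndufb6, Ndufa5, Ndufa9, Ndufaf2, Cox7a2, Cox8a and Atp5h also fell, by 0.62 (Ndufa9) to 1.19 (Atp5h) on the log2 scale, with edgeR adjusted p-values between 0.00276 and 0.014 (Benjamini-Hochberg). With the offset, Ndufab1 was called lower at -0.63 and the other 10 were not called, from -0.35 (Atp5h) and -0.31 (Ndufa9) to 0.05 (Cox7a2). Uqcrh, Ndufa7, Ndufc2 and Ndufa1, named for their level or their lack of an EZH2 peak, were called lower by 0.81, 0.76, 0.78 and 0.66 on the log2 scale, with edgeR adjusted p-values of 0.0295, 0.0245, 0.0337 and 0.0277 (Benjamini-Hochberg). With the offset these stood at 0.02, 0.06, -0.14 and 0.18, and none was called.

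Of the widely expressed forms of the isoform pairs, several fell. Cox4i1 went from 1917 and 1681 TPM in WT and 1534 and 1822 TPM in ATRXΔRBR to 1386 and 1405 TPM in the libraries labelled ATRX KD, with a log2 fold change of -0.75 ± 0.18, an edgeR adjusted p of 0.0179 (Benjamini-Hochberg) and -0.09 with the offset. Cox6a1 was at 1315 and 755 TPM in WT, 617 and 956 TPM in ATRXΔRBR and 524 and 541 TPM in those libraries (-1.20 ± 0.28, edgeR adjusted p = 0.0172 by Benjamini-Hochberg, -0.33 with the offset). Both genes were lowest in the libraries labelled ATRX KD. Cox7b fell by 0.49 on the log2 scale (edgeR adjusted p = 0.0211 by Benjamini-Hochberg) and was called in the opposite direction, at 0.33, with the offset. Cox6b1, at -0.62, was not called (edgeR adjusted p = 0.0898 by Benjamini-Hochberg).

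The 3 members that rose were Sdha, the flavoprotein subunit of complex II, Ndufb8, an accessory subunit of complex I, and Ndufaf3, a complex I assembly factor. Ndufaf3 was at 27.6 and 26.0 TPM in WT, 22.15 and 33.2 TPM in ATRXΔRBR, and 58.1 and 64.4 TPM in the libraries labelled ATRX KD, with a log2 fold change of 0.78 ± 0.18, an edgeR adjusted p of 0.0173 (Benjamini-Hochberg) and 1.40 with the offset. Ndufb8 was at 321 and 288 TPM in WT, 298 and 354 TPM in ATRXΔRBR, and 436 and 445 TPM in those libraries (0.55 ± 0.16, edgeR adjusted p = 0.03355 by Benjamini-Hochberg, 1.27 with the offset). Sdha, named after its values were seen, was at 247 and 264 TPM in WT, 308 and 286 TPM in ATRXΔRBR, and 459 and 432 TPM in those libraries (0.42 ± 0.11, edgeR adjusted p = 0.02285 by Benjamini-Hochberg). In all 3 genes the libraries labelled ATRX KD were above the other 4.

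The libraries labelled ATRX KD were also set beside ATRXΔRBR, where 38 of 86 members were called, 34 lower and 4 higher, beside 34.7% of all genes (18.5% lower, 16.2% higher). These comparisons share libraries with those above. The lower members included Cox6c (-1.76 ± 0.16), Cox7a2l (-1.71 ± 0.17), Ndufa12 (-1.23 ± 0.15) and Cox6a2 (-4.51 ± 0.60), for which edgeR gave Benjamini-Hochberg adjusted p-values of 6.12e-05, 0.000142, 0.00034 and 0.000641. With the length and GC offset 36 members were higher and 21 lower (48.6% of all genes, 26.0% higher and 22.7% lower), so that here too the direction of the list depended on the treatment of length. Ndufa4l2, a relative of Ndufa4, had 7 and 17 counts in ATRXΔRBR and 1 and 0 counts in the libraries labelled ATRX KD, and was not tested against WT there.

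The genes of the respiratory chain that are outside the rule are given next. Of the 13 mitochondrially encoded genes, 6 were listed at 0 in every library and 7 were tested. None was called in ATRXΔRBR by edgeR, 1 having an unadjusted p under 0.05 and DESeq2 calling 1. In the libraries labelled ATRX KD, mt-Nd6 was the 1 gene called, at 3274 and 2798 TPM beside 4024 and 3981 TPM in WT (-0.62 ± 0.12, edgeR adjusted p = 0.00901 by Benjamini-Hochberg). It lies on the opposite strand to the other mt genes tested, and whether counting used the strand is not given in the sources used here. With the offset, 6 of the 7 were higher.

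Of 38 other subunits, carriers and assembly factors, 1 was called lower in ATRXΔRBR and 4 higher and 9 lower in the libraries labelled ATRX KD, where the offset gave 10 higher and 3 lower. Cox16, an assembly factor of cytochrome c oxidase, was called in both, at 50.7 and 46.9 TPM in WT, 13.85 and 17.45 TPM in ATRXΔRBR, and 119.83 and 107 TPM in the libraries labelled ATRX KD. Its log2 fold changes were -1.71 ± 0.28 and 1.18 ± 0.18, with edgeR adjusted p-values of 0.0108 and 0.00372 (Benjamini-Hochberg). Among 17 regulators, 1 was called lower in ATRXΔRBR, and 2 higher and 2 lower in the libraries labelled ATRX KD. Ppargc1a, which encodes the coactivator PGC-1 alpha, was at 1.54 and 1.74 TPM in WT, 0.17 TPM in both ATRXΔRBR libraries and 15.0 and 14.7 TPM in the libraries labelled ATRX KD. Its log2 fold changes were -3.16 ± 0.40 and 2.93 ± 0.17, with edgeR adjusted p-values of 0.00315 and 0.000119 (Benjamini-Hochberg). The ATRXΔRBR value rests on a low level. With at least 10 counts in every library, 16 regulators were tested there by edgeR, with 0 called and 0 at an unadjusted p under 0.05. DESeq2 without that filter called 1. Among 78 mitochondrial ribosomal proteins, none was called in ATRXΔRBR, with 8 at an unadjusted p under 0.05 and 2 by DESeq2, and in the libraries labelled ATRX KD 1 was higher and 21 lower. With the offset those numbers were 20 and 8. Beside the counts of these lists, 6.85% of all genes tested were called in ATRXΔRBR against WT. In the libraries labelled ATRX KD against WT, 33.0% of all genes were called (15.2% higher, 17.8% lower), and 35.7% with the offset. Whether these lists differ from all genes was not tested.

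CUT&RUN peaks were counted where at least 1 base lay within 2 kb of a member's annotated start, the 5′ end of the gene in GENCODE M21. EZH2, the H3K27 methyltransferase, had a peak at 74 and 68 of the 94 members in the WT lists (50.6% and 46.8% of all genes), at 82 and 53 in ATRXΔRBR (49.2% and 35.0%), and at 28 and 38 in ATRX KD (19.4% and 24.8%). Restricted to genes at 5 TPM or more in WT, 69 and 63 of 81 members (85.2% and 77.8%) had a peak in WT, beside 84.5% and 78.5% of all such genes. The shares were 95.1% and 61.7% in ATRXΔRBR, beside 87.2% and 58.0%. In ATRX KD they were 32.1% and 44.4%, beside 31.6% and 41.5%. In both WT lists, 64 of the 94 members (68.1%) had a peak, beside 44.9% of all genes and 75.7% of genes at 5 TPM or more in WT. Peaks in both WT lists and neither ATRX KD list were at 27 of the 94 (28.7%), beside 18.3% and 30.9%. Both ATRXΔRBR lists held 53 members (56.4%, beside 32.4% and 57.2%) and both ATRX KD lists 24 (25.5%, beside 16.4% and 26.5%). No member had peaks in both WT lists and neither ATRXΔRBR list (1.19% of all genes), or in both ATRX KD lists and neither WT list (0.141%). The ATRX KD lists of EZH2 were also short, with 5376 and 7093 peaks beside 22316 and 18351 in WT. Their highest −log10 q values were 178.8 and 178.1, beside 36.8 and 25.6 in WT. A loss at the members thus cannot be told apart from a change of the whole list.

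**Figure D5:**
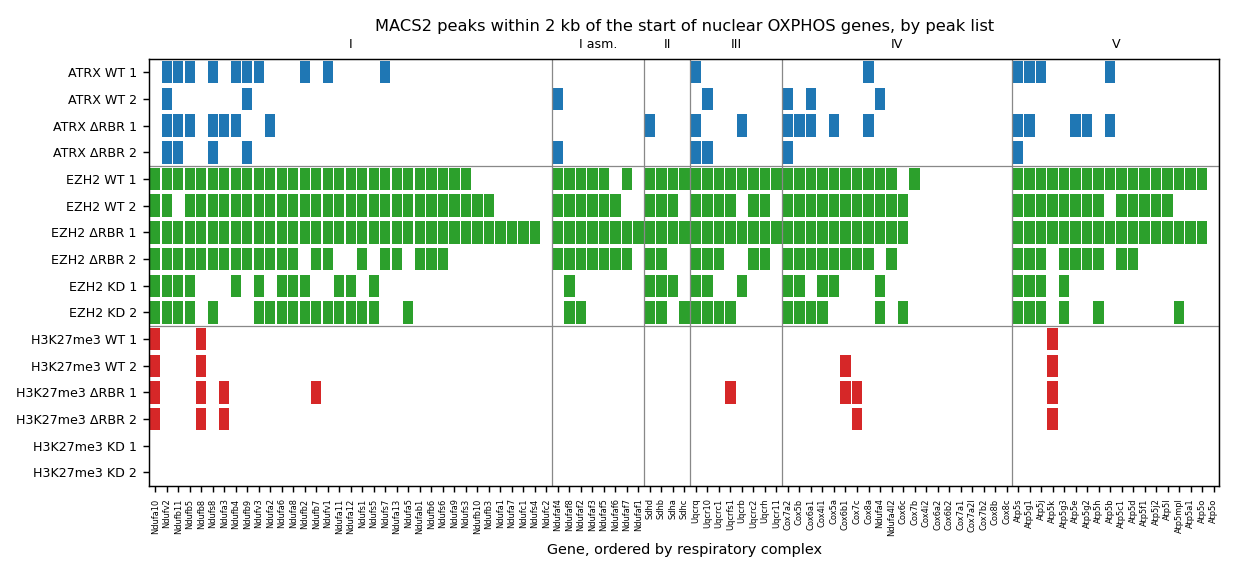
Members with an ATRX, EZH2 or H3K27me3 peak within 2 kb of the start (filled cells), with the 16 peak lists as rows and members as columns by complex. EZH2 peaks cover most members in WT and ATRXΔRBR, ATRX peaks 29 members and H3K27me3 peaks 8 members.

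Members at 5 TPM or more without an EZH2 peak in either WT list included Ndufc1, Ndufa7, Ndufs4, Ndufc2, Ndufa1, Cox7a2l and Ndufaf1. Ndufa1, Ndufa7, Ndufc1, Ndufs4 and Ndufaf1 had one in the first ATRXΔRBR list only. Cox7a2l had a peak in all 6 lists 2473 to 2746 bases from the start used here and at another annotated start, so its absence rests on the choice of start. Median log2 fold changes in the libraries labelled ATRX KD against WT were taken by EZH2 state. Members with EZH2 peaks kept in both ATRX KD lists (22 tested) had -0.41. Those with peaks in WT and not in ATRX KD (26 tested) had -0.65, and those without a peak in either WT list (9 tested) had -0.78. In the same order, all genes in these states had -0.04, 0.00 and -0.10. With the offset the medians were 0.21, -0.05 and -0.05 for the members, beside -0.004, 0.038 and -0.028 for all genes. Differences between the states were not tested.

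ATRX peaks were at 16 and 7 members in WT (12% and 5.7% of all genes) and at 20 and 9 in ATRXΔRBR (13.6% and 4.91%). Among genes at 5 TPM or more in WT the members' shares were 18.5%, 8.64%, 22.2% and 11.1%, beside 23.0%, 10.8%, 26.9% and 9.17% of all such genes, so the share was above the background in 1 of the 4 lists. The 2 lists of a genotype shared few of these members. A peak in any list was found at 29 members. Of the 94 members, 2 (2.13%) had one in both WT lists, beside 3.74% of all genes and 6.97% of genes at 5 TPM or more in WT. In both ATRXΔRBR lists 6 members (6.38%) had one, beside 3.08% and 5.95%. None had peaks in both lists of 1 genotype and in neither of the other (0.337% and 0.424% of all genes). Every member with an ATRX peak had an EZH2 peak in the same replicate, 16 of 16, 7 of 7, 20 of 20 and 9 of 9 members, and so did 96.7%, 94.4%, 97.5% and 84.5% of all genes with an ATRX peak. Ndufv2, a core subunit of complex I, was the member with ATRX peaks in all 4 lists, and Ndufs8 had them in both ATRXΔRBR lists. The ATRX peaks of the members had a median width of 310 bases in the first WT list, as did all peaks of that list, and were centred within 90 bases of the start in the median.

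H3K27me3 peaks were at 3 and 4 members in WT, 8 and 5 in ATRXΔRBR, and none in ATRX KD, beside 15.6%, 16.4%, 16.2%, 14.7%, 6.0% and 5.55% of all genes. Among genes at 5 TPM or more in WT the WT and ATRXΔRBR shares were 3.7%, 4.94%, 9.88% and 6.17% of 81 members beside 3.21%, 3.7%, 5.79% and 5.2% of all such genes. Both WT lists held 3 members (14.7% of all genes), both ATRXΔRBR lists 5 (13.7%) and both ATRX KD lists none (4.23%). Thus 3 members had peaks in both WT lists and neither ATRX KD list, beside 8.64% of all genes and 1.9% of those at 5 TPM or more. None had the reverse (0.328% of all genes), and none had peaks in both WT lists and neither ATRXΔRBR list (4.3%). The ATRX KD lists of H3K27me3 were also short, with 7241 and 6336 peaks beside 36011 and 38832 in WT. Their highest −log10 q values were 169.7 and 173.3, beside 17.2 and 18.7 in WT. A loss at the members thus cannot be told apart from a change of the whole list. Ndufa10, Ndufb8 and Atp5k had H3K27me3 peaks in all 4 WT and ATRXΔRBR lists, Ndufa3 and Cox7c in both ATRXΔRBR lists only (3.63% of all genes), and Cox6b1, Ndufb7 and Uqcrfs1 in 1 or 2 lists. The peak at Ndufb8, 1 of the 3 members that rose in the libraries labelled ATRX KD, spanned 18513 bases in the first WT list, across its start. It covered the start in all 4 lists, and that of Ndufa10 did so in 1. The peaks of the other 6 members lay within 2 kb without covering the start. Of these 8 members, Atp5k, a small ATP synthase subunit, fell in the libraries labelled ATRX KD, from 577 and 393 TPM in WT and 305 and 403 TPM in ATRXΔRBR to 246 and 309.92 TPM (log2 fold change -1.02 ± 0.25, edgeR adjusted p = 0.0188 by Benjamini-Hochberg). Cox7c, a cytochrome c oxidase subunit, was at 16.2 and 17.1 TPM in WT, 19.1 and 14.1 TPM in ATRXΔRBR and 8.95 and 11.8 TPM in those libraries, and fell by 0.86 on the log2 scale with an edgeR adjusted p of 0.0491 (Benjamini-Hochberg). With the offset Atp5k was at -0.14 and Cox7c at -0.16, and neither was called. Ndufa10, an accessory subunit of complex I, was at 193 and 204 TPM in WT, 256 and 257 TPM in ATRXΔRBR and 234 and 274 TPM in the libraries labelled ATRX KD, and was not called.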

How the data were processed

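RNA-Seq of poly(A) RNA from 6 MEF libraries and CUT&RUN peak lists from 16 libraries were used, 2 libraries per group, grouped by their titles. IgG libraries were not analysed here. Per the authors' methods and processing notes, reads were aligned to mm10 with STAR (RNA-Seq) or Bowtie2 (CUT&RUN), with the versions given there. The authors deposited estimated counts from RSEM per gene, together with TPM, which is scaled to transcript length and library size. The deposited FPKM values were not used. The deposited peak lists, called by the authors with MACS2 in broad mode for each library, give a fold enrichment and −log10 p and q values, and hold no read counts, so that the depth of each library is not known beyond the approximate range that the study states for all of them. No column of other samples was used (0 columns).

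Estimated counts were rounded, and genes whose counts summed to more than 10 in the 4 libraries compared entered the quasi-likelihood test of edgeR 4.0.16 (R 4.3.3) after TMM scaling. P-values were adjusted by Benjamini-Hochberg over all genes tested, with calls under 0.05. Alternatives used DESeq2 1.42.0, limma 3.58.1 on log2(TPM + 1), an offset for length and GC content (mgcv 1.9.3), other filters, a replicate block and each library left out. TPM sums and levels carry no test. Peaks counted where at least 1 bp lay within 2 kb of the gene start in GENCODE M21. The test was tested on simulated data, where 64% (ATRXΔRBR against WT), 93% (ATRX KD against WT) and 87% (ATRX KD against ATRXΔRBR) of 2-fold changes were recovered among 16334, 16785 and 16520 genes. In the same order there were 10, 24 and 15 false calls, with 100 genes changed 2-fold and 100 changed 4-fold.

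The study's methods call the 2 libraries of a genotype biological replicates, while the labels do not say whether they came from separate cultures, so p-values measure only the spread between these libraries. The members, gene lists and tests were chosen with earlier results of these data known. Members were named if called against WT (up to 20 per comparison by smallest p), highest or lowest in WT within a complex, a restricted isoform or its partner, marked by an H3K27me3 peak, marked by ATRX in both lists of 1 genotype and neither of the other, or without an EZH2 peak in WT. Genes outside the members are given as counts, with values only for called ones. Deviations of libraries with equal replicate numbers correlated at -0.735, -0.154 and 0.174 in the 3 comparisons, so the numbers do not pair the libraries. The individual values of 1 member are not reported here, and it is left out of the peak grid.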

Additional observations from a re-analysis of the deposited data

How the results depend on the processing

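Of 587 values recomputed under alternatives, 476 stayed the same, 44 were weaker, 50 moved and 17 reversed. For counts, medians, shares and ratios, the same meant a value close to the main one, and calls were not compared. Direction and call were compared for 351 values of named members. Of these, 298 kept both, 44 kept the direction and were no longer called, and 9 reversed. The cause was not tested. Of the named members, 8 in the libraries labelled ATRX KD were called in the same direction in every refit at an adjusted p under 0.05, as was Cox6a2 in ATRXΔRBR in every refit that tested it. The 2 members called in ATRXΔRBR against WT became 1 with DESeq2 size factors and 1 with limma at either pseudocount. They became 1 at an absolute log2 fold change of at least 1, and 6 with all 6 libraries in one fit. With no filter 6 were called, and with the length and GC offset 10. By edgeR with at least 10 counts in every library 0 were called, 9 having an unadjusted p under 0.05. The DESeq2 test, without that filter, tested 86 members and called 2. Leaving out a library leaves 1 against 2, where the lone library is assumed to vary like the other group. It gave 1 to 9 calls, 9 without WT replicate 2, and medians from -0.36 to 0.0928, above 0 without WT replicate 1 (0.0928) or ATRXΔRBR replicate 1 (0.05). The 45 calls of the libraries labelled ATRX KD against WT became 24 and 25 with limma at pseudocounts of 0.1 and 1, 14 at an absolute log2 fold change of at least 1, and 19 (without ATRX KD replicate 1) to 68 (without WT replicate 2) leaving out a library, with 29 without ATRX KD replicate 2. The 38 calls against ATRXΔRBR became 11 at that fold and 20 to 68 leaving out a library, 68 without ATRXΔRBR replicate 1.

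The replicate block left 1 call in ATRXΔRBR, 48 in the libraries labelled ATRX KD against WT and 47 against ATRXΔRBR, and 5 and 58 in the first and the last with the offset added. Crossed pairing, chosen after seeing the data, gave 38, 55 and 39 calls, and 35 and 58 in the first and the last with the offset. Apart from the offset alone, the share of all genes called is not given for the refits here and in the preceding paragraph. Their counts thus cannot tell a change of the members from a change over all genes. The median in the libraries labelled ATRX KD against WT reversed to 0.0405 with the offset, 0.04 with block and offset and 0.0372 with crossed block and offset, and against ATRXΔRBR to 0.0526, 0.0471 and 0.0386. In the same order Ndufa4 reversed to 0.0446, 0.0452 and 0.0475, Cox7a2 to 0.0516, 0.0514 and 0.0522, and Cox8a to 0.0038, 0.0055 and 0.0086.

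The mean number of members with peaks in 2 lists moved from 11.5 to 6.5 (ATRX, WT), 14.5 to 9 (ATRX, ATRXΔRBR) and 33 to 21.5 (EZH2, ATRX KD) at q of 0.01 or less, with 7 to 16 and 9 to 20 for ATRX in WT and ATRXΔRBR leaving out a list. For H3K27me3 it moved from 3.5 to 0.5 in WT and from 6.5 to 0 in ATRXΔRBR, both with 50% of the peak inside the window and with its midpoint inside, and to 3 in ATRXΔRBR with a 1 kb window. With summed TMM CPM, the ratio to WT was 0.853 for complex I assembly factors in ATRXΔRBR, and 0.910 for assembly factors, 1.13 for complex II and 0.562 for complex IV in the libraries labelled ATRX KD. The ATRX KD genotype cannot be told apart from differences of those libraries.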
